A study of Mus musculus with 12 samples.

Results

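The 9 mouse Cyp2c genes described here (Cyp2c23, Cyp2c29, Cyp2c37, Cyp2c38, Cyp2c39, Cyp2c40, Cyp2c50, Cyp2c54 and Cyp2c55) encode cytochrome P450 enzymes of one subfamily and were taken by name from the read counts of 12 male mouse liver libraries, out of 20093 genes counted in both diet groups. By name, 8 of the 9 were found. Cyp2c23 was listed under its older symbol Cyp2c44, and its Ensembl identifier ENSMUSG00000025197 made it the ninth. The livers fell into 4 groups of 3, called Chow WT, Chow HuRHep-/-, HFCF WT and HFCF HuRHep-/-. Per the labels, the mice were C57BL/6N males, 4 to 6 months old when injected, with both copies of Elavl1, the gene of the RNA-binding protein HuR, flanked by loxP sites. The labelled HuRHep-/- mice had received AAV8-Tbg-Cre, an adeno-associated virus that expresses Cre recombinase from a hepatocyte promoter, and the WT mice the same floxed allele with AAV8-Tbg-null. The study's methods instead describe an albumin-Cre cross of younger mice, and the counts do not tell these descriptions apart. HFCF stands for a diet with 40 kcal% fat, 20 kcal% fructose and 2% cholesterol, fed for 16 weeks, whereas the chow groups ate normal chow. The chow and HFCF libraries came in separate tables, so that diet and table cannot be told apart.

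Cyp2c enzymes sit in the endoplasmic reticulum of hepatocytes and oxidize drugs, steroids and fatty acids. Acting on arachidonic acid, some family members are epoxygenases, which form epoxyeicosatrienoic acids (EETs), and others are hydroxylases, which form hydroxyeicosatetraenoic acids (HETEs). EETs are lipid mediators known for vasodilator and anti-inflammatory actions, and soluble epoxide hydrolase, the product of Ephx2, converts them to diols. In liver, Cyp2c transcription is known to depend on HNF4α and on the xenobiotic receptors CAR and PXR. The comparisons asked whether the transcripts of the family differed with the HuR genotype on each diet and with the diet in each genotype.

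Library totals ran from 30071731 to 35949203 counted reads, and 0 pairs of libraries held identical counts. Levels are given as normalized CPM, which are CPM after TMM scaling (trimmed mean of M values, which equalizes libraries on the bulk of their genes) over all 12 libraries. Elavl1, the deleted gene, went against the labels. Its level was 31.04, 29.4 and 31.04 normalized CPM in Chow WT livers and 43.4, 39.3 and 39.3 in Chow HuRHep-/- livers, and it was 24.1, 24.1 and 26.9 in HFCF WT livers and 32.0, 31.8 and 33.5 in HFCF HuRHep-/- livers. The labelled HuRHep-/- livers were therefore higher on both diets (log2 fold change 0.41 ± 0.07 SE, adjusted p = 0.0222 in chow; 0.39 ± 0.07 SE, adjusted p = 0.0319 in HFCF; limma with Benjamini-Hochberg adjustment). Counts cover the whole gene, reads outside the deleted part included. For this reason "HuRHep-/-" below means livers labelled HuRHep-/-, and each direction between genotypes rests on that label.

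All 9 genes lie on chromosome 19 (GRCm38, GENCODE M21). Of these, 8 stand within one cluster, and Cyp2c23 (chr19:44005022-44029208, minus strand) lies apart from it. Along the cluster come Cyp2c55 (chr19:39007019-39042693, plus strand), Cyp2c29 (chr19:39269405-39330713, plus), Cyp2c38 (chr19:39389556-39463075, minus), Cyp2c39 (chr19:39510862-39568529, plus), Cyp2c40 (chr19:39767071-39812814, minus), Cyp2c37 (chr19:39992424-40012243, plus), Cyp2c54 (chr19:40037940-40073827, minus) and Cyp2c50 (chr19:40089688-40113950, plus). Neighbours in this cluster share sequence, which bears on how reads were divided among them. Of the words of 31 bases in its longest transcript, Cyp2c40 shared 84.5% with transcripts of other genes, chiefly Cyp2c67 (53.3%) and Cyp2c69 (53.0%). The corresponding share was 47.9% for Cyp2c50, 47.4% for Cyp2c37 and 42.3% for Cyp2c54, each mostly with the other members of that trio. It was 26.9% for Cyp2c39, 16.6% for Cyp2c38, 10.3% for Cyp2c29, 2.90% for Cyp2c55 and 0% for Cyp2c23. Counts of Cyp2c40, and to a lesser degree of the trio Cyp2c37, Cyp2c50 and Cyp2c54, are therefore uncertain as values of single genes. In addition, 4.64% of the exon bases of Cyp2c29 overlap those of the pseudogene Cyp2c53-ps.

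RefSeq start sites were listed for 7 of the 9 genes. Promoter windows of 300 bases (250 before and 50 after the start, GRCm38.p6) are shown for 5 of them, because they include the 2 most abundant members, a closely similar pair and 2 members that were not among the abundant ones. The windows lie at chr19:39286835-39287134 (plus strand, Cyp2c29), chr19:39992174-39992473 (plus, Cyp2c37), chr19:40089429-40089728 (plus, Cyp2c50), chr19:39463026-39463325 (minus, Cyp2c38) and chr19:39006769-39007068 (plus, Cyp2c55). Capitals mark CAAAGT, a half-site of HNF4-type binding motifs, on either strand.
Cyp2c29: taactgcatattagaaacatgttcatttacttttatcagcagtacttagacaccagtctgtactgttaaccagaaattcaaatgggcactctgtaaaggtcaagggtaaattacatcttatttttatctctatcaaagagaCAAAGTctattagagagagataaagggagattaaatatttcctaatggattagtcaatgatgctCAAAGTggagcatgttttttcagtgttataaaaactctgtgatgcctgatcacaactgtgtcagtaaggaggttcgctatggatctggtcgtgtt
Cyp2c37: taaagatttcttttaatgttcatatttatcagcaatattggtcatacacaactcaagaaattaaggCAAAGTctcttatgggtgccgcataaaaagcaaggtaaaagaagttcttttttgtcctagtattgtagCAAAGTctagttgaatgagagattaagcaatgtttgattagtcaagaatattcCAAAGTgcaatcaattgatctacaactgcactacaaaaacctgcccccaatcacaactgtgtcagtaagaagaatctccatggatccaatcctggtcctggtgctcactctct
Cyp2c50: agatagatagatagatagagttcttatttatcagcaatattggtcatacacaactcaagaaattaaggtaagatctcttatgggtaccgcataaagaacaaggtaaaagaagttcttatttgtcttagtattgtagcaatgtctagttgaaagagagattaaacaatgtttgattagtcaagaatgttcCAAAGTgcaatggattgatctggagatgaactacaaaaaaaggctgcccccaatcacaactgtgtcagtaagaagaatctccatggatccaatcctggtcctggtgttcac
Cyp2c38: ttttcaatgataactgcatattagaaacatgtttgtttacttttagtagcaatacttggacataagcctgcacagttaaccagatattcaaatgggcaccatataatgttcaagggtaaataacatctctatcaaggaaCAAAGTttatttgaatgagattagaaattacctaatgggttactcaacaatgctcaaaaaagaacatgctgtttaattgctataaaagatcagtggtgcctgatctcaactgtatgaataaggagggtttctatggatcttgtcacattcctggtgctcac
Cyp2c55: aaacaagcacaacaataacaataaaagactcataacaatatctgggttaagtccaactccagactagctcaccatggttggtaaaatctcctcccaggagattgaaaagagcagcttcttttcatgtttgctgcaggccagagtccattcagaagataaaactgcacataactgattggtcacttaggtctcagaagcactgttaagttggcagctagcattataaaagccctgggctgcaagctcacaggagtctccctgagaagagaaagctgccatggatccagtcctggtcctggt

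CAAAGT or its complement stood in 6 of the 7 member windows, those of Cyp2c29, Cyp2c38, Cyp2c39, Cyp2c40, Cyp2c37 and Cyp2c50, and in 14.4% of the 32851 RefSeq promoter windows of this length. The Cyp2c55 window held no such match. TATAAA stood in 5 of the 7 windows and in 13.6% of all. Other motifs searched on both strands were GTTAAT (1 of 7, 7.10% of all), AGGTCA (1 of 7, 16.3%), TTGCNNAA (2 of 7, 10.8%) and TTCNNNGAA (0 of 7, 8.30%). Windows of related genes resembled each other, with 88.0% identity between Cyp2c37 and Cyp2c50, 79.7% between Cyp2c38 and Cyp2c39 and 76.0% between Cyp2c29 and Cyp2c38, so that motif matches in them are not independent. Since HuR is known to bind AU-rich stretches of 3′ untranslated regions, ATTTA was also counted there. At least 1 ATTTA stood in 7 of the 9 members and in 68.6% of 13358 tested genes. Over those genes the median 3′ untranslated region had 1112 bases, and the median density was 1.27 ATTTA per kb. Cyp2c38 held 4 in 1375 bases, Cyp2c29 (266 bases) and Cyp2c55 (495 bases) held 0, and the other 6 held 1 each. Per kb, the 7 members with a match ran from 2.39 (Cyp2c23, 1 in 419 bases) to 4.26 (Cyp2c40, 1 in 235 bases). A match describes these letters only.

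Per kilobase of exon, levels differed widely among the members in Chow WT livers. Cyp2c29 was highest at 578 normalized CPM per kb, followed by Cyp2c50 at 308, and neither overlapped its neighbour in that order over the 3 livers. Cyp2c23 (207), Cyp2c37 (205) and Cyp2c54 (185) came next, with neighbouring ranges that overlapped. Far below stood Cyp2c38 (10.8) and Cyp2c55 (7.52), whose ranges overlapped, then Cyp2c40 (2.83) and Cyp2c39 (0.534). In HFCF HuRHep-/- livers Cyp2c29 (197) and Cyp2c50 (148) still had the highest means on this scale, but the range of Cyp2c50 overlapped that of Cyp2c23 (137). Cyp2c54 had gone from the fifth to the sixth place, at 27.2 normalized CPM per kb beside Cyp2c38 at 28.2, and the ranges of these 2 genes overlapped.

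**Figure D1:**
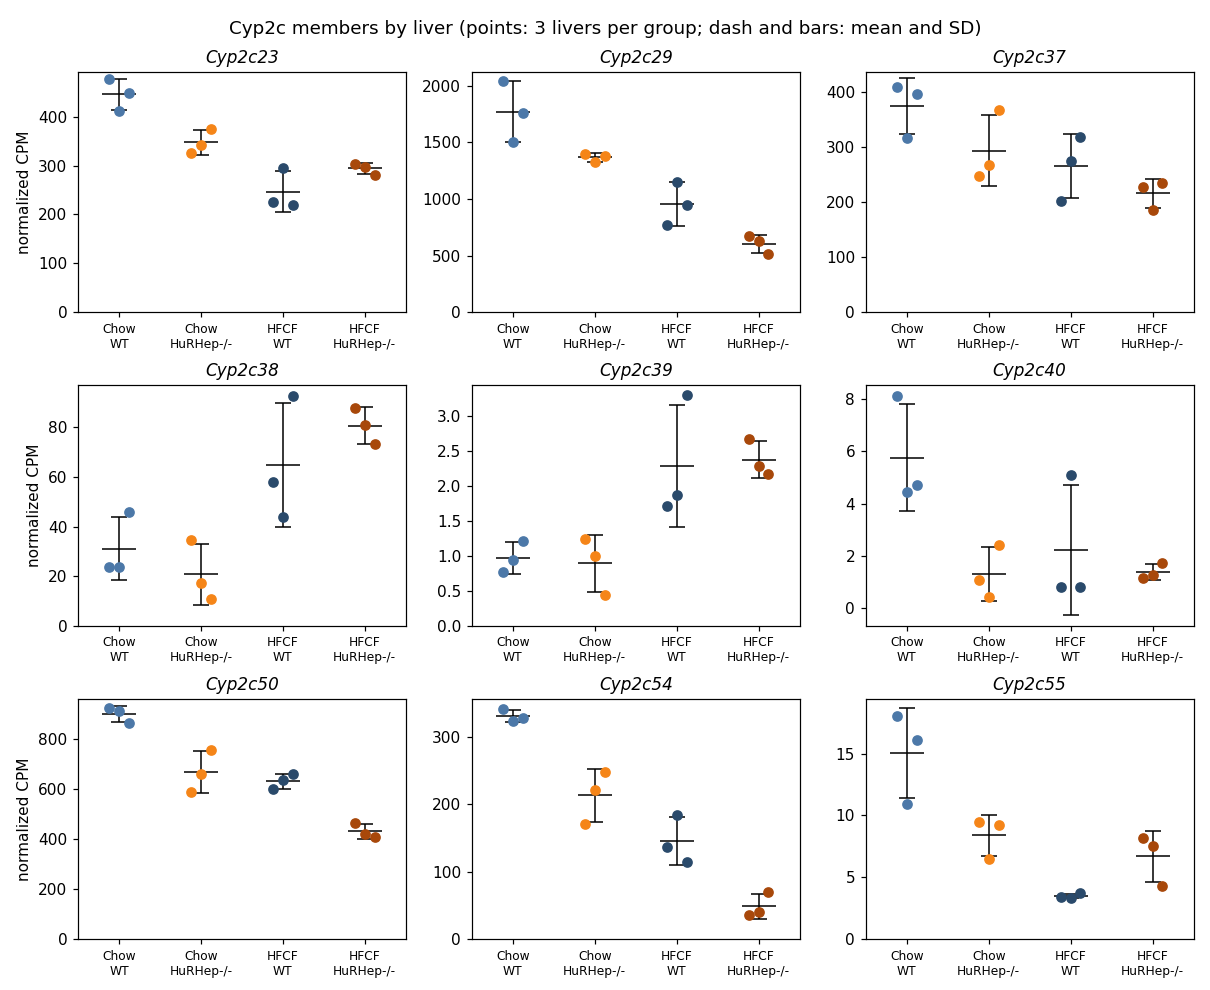
Normalized CPM (vertical axes, linear) of each of the 9 Cyp2c members in the 12 livers, with 1 panel per gene and 1 point per liver; the dash and bars give the mean and SD of the 3 livers of a group. Cyp2c54 fell from 323 to 340 in Chow WT livers to 35.0 to 70.1 in HFCF HuRHep-/- livers, whereas Cyp2c38 was at 43.9 or more in all HFCF livers and in 1 of the 6 chow livers.

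On chow, all 9 members had a log2 fold change below 0 in HuRHep-/- livers, with a median of -0.44, while 49.7% of all 13526 genes tested were below 0 and their median was 0.00. After adjustment over all genes, 1 of the 9 passed, Cyp2c54, beside 1.93% of all genes called lower. Unadjusted p was under 0.05 for 7 of 9 members and for 23.5% of all genes, and the groups did not overlap for 6 of 9 members and 29.4% of all genes. On HFCF, 5 members were below 0 and 4 above, with a median of -0.12 beside 49.8% of genes below 0 and a median of 0.00 over all genes. Cyp2c50 and Cyp2c54 passed there, 2 of 9 members, beside 3.83% of all genes called lower. Unadjusted p was under 0.05 for 5 of 9 members and 29.5% of genes, and the groups stood apart for 4 of 9 members and 36.9% of genes. In these bulk livers, fewer cells of a type and less RNA per cell cannot be told apart.

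The diet contrasts were fitted on all 12 libraries, unlike the genotype contrasts within a diet, and called larger shares of all genes. In WT livers, 5 members were lower on HFCF than on chow (Cyp2c23, Cyp2c29, Cyp2c50, Cyp2c54 and Cyp2c55) and 1 was higher (Cyp2c39), beside 13.0% of all genes called lower and 11.2% called higher. In HuRHep-/- livers, 3 were lower (Cyp2c29, Cyp2c50 and Cyp2c54) and 2 higher (Cyp2c38 and Cyp2c39), beside 22.2% lower and 18.3% higher over all genes. The groups did not overlap for 6 members in WT, against 37.4% of all genes, and for 7 members in HuRHep-/- livers, against 55.9%. The genotype and diet comparisons share libraries and are not independent of each other.

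**Figure D2:**
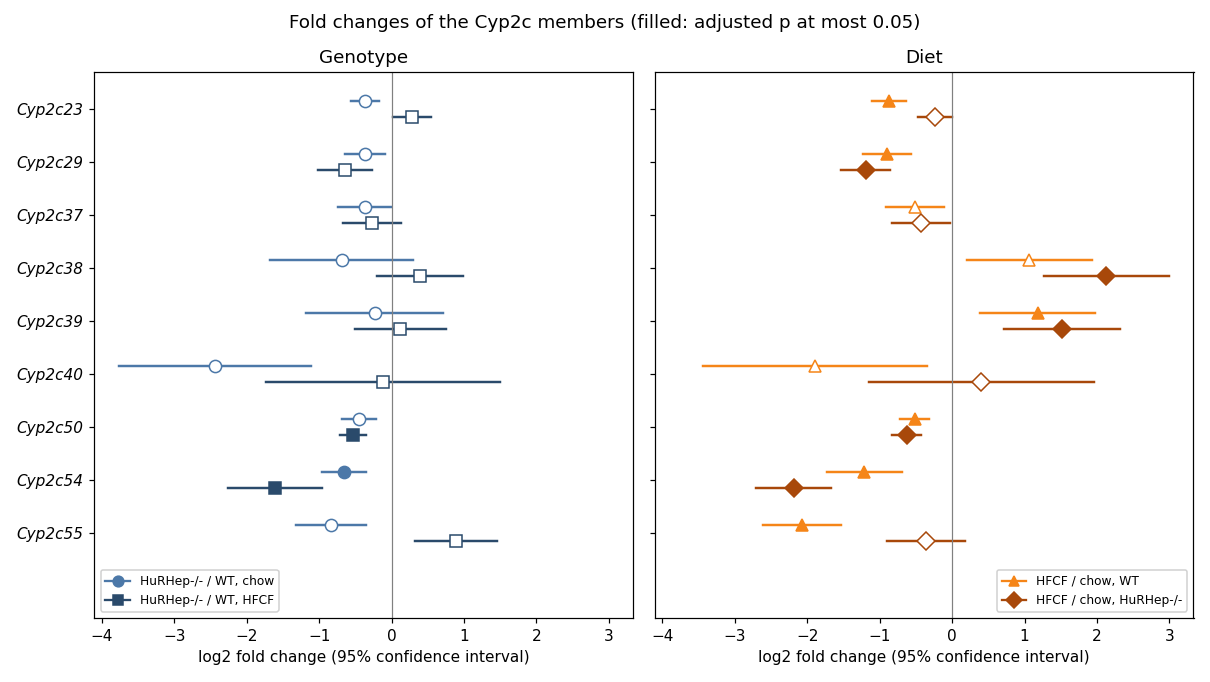
Log2 fold change (horizontal axis) with 95% confidence interval of each member for genotype on each diet (left panel) and for diet in each genotype (right panel); filled markers have an adjusted p of at most 0.05. Filled markers stand at Cyp2c54 (chow) and at Cyp2c50 and Cyp2c54 (HFCF) for genotype, and Cyp2c38 and Cyp2c39 are the members to the right of 0 in both diet comparisons.

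The epoxygenases of high abundance were described first. Cyp2c29, the most abundant member and an EET-forming enzyme, was counted at 2047, 1506 and 1758 normalized CPM in Chow WT livers and at 1401, 1326 and 1384 in Chow HuRHep-/- livers. On HFCF it stood at 767, 1150 and 946 in WT and at 670, 624 and 515 in HuRHep-/- livers. Every HuRHep-/- liver lay below every WT liver of its diet, and all HFCF livers lay below all chow livers. The genotype difference was 1.29-fold in chow (log2 -0.37 ± 0.12 SE, adjusted p = 0.121) and 1.56-fold in HFCF (-0.64 ± 0.16 SE, adjusted p = 0.0576), neither past the threshold, although the HFCF difference passed in the fit on all 12 libraries (adjusted p = 0.0211). Averaged over both diets, Cyp2c29 fell by 1.42-fold in HuRHep-/- livers (adjusted p = 0.00840). With the diet it fell 1.87-fold in WT (adjusted p = 0.00251) and 2.28-fold in HuRHep-/- livers (adjusted p = 0.000301).

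Cyp2c50, which forms EETs and also hydroxylates arachidonic acid, had 923, 912 and 862 normalized CPM in Chow WT livers and 588, 659 and 754 in Chow HuRHep-/- livers. On HFCF it had 597, 635 and 657 in WT and 465, 420 and 407 in HuRHep-/- livers. Both genotype pairs were separate, with the HuRHep-/- livers low. On HFCF it fell 1.45-fold in HuRHep-/- livers (log2 -0.54 ± 0.08 SE, adjusted p = 0.0195), while the chow difference of 1.36-fold missed the threshold (-0.44 ± 0.10 SE, adjusted p = 0.0528) and passed in the fit on all 12 libraries (adjusted p = 0.0188), with upper-quartile scaling (0.0460) and without Chow HuRHep-/- replicate 3 (0.0263). The HFCF call was lost without HFCF WT replicate 1 (adjusted p = 0.0609) and without HFCF HuRHep-/- replicate 1, 2 or 3 (0.0717, 0.0827 and 0.0600). In the average over diets it fell 1.41-fold (adjusted p = 0.000628), and with the diet it fell 1.43-fold in WT (adjusted p = 0.00323) and 1.54-fold in HuRHep-/- livers (adjusted p = 0.000553).

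Cyp2c54, an epoxygenase that neighbours Cyp2c50, had the largest genotype difference among the abundant members. It was counted at 340, 323 and 328 normalized CPM in Chow WT and at 170, 222 and 247 in Chow HuRHep-/- livers. On HFCF the WT livers had 136, 184 and 115, and the HuRHep-/- livers had 35.0, 40.4 and 70.1. The 4 groups formed a descending order without overlap except between HFCF WT replicate 2 and Chow HuRHep-/- replicate 1, the highest and the lowest liver of their groups. Cyp2c54 fell 1.58-fold in HuRHep-/- livers on chow (log2 -0.66 ± 0.13 SE, adjusted p = 0.0362) and 3.05-fold on HFCF (-1.61 ± 0.28 SE, adjusted p = 0.0277). With the diet it fell 2.32-fold in WT (adjusted p = 0.00455) and 4.55-fold in HuRHep-/- livers (adjusted p = 0.000134).

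Neither genotype call of Cyp2c54 held in every fit. The chow call was lost in the fit on all 12 libraries (adjusted p = 0.124) and with a replicate block (adjusted p = 0.0505). It was also lost without Chow WT replicate 1 (adjusted p = 0.0991), replicate 2 (0.061) or replicate 3 (0.0978) and without Chow HuRHep-/- replicate 2 (0.126), and on HFCF without WT replicate 1 (0.0785) and HuRHep-/- replicates 1 (0.108) and 2 (0.0979). Over the fits with a library left out, its log2 fold change ran from -0.78 to -0.50 on chow and from -1.91 to -1.41 on HFCF. Averaged over the diets it fell 2.20-fold (log2 -1.14 ± 0.17 SE, adjusted p = 0.00114). The reads of the trio with shared sequence, Cyp2c37, Cyp2c50 and Cyp2c54, were also summed before fitting. That sum was lower in HuRHep-/- livers by -0.57 ± 0.09 SE on HFCF (log2, adjusted p = 0.0234) and by -0.47 ± 0.12 SE on chow, where it missed the threshold (adjusted p = 0.0730).

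Cyp2c37, which forms a HETE, gave values of 409, 316 and 396 normalized CPM in Chow WT, 246, 266 and 366 in Chow HuRHep-/-, 202, 275 and 317 in HFCF WT and 226, 186 and 234 in HFCF HuRHep-/- livers. The genotypes overlapped on both diets. As designed, no genotype contrast within a diet and no diet contrast passed for this gene, with log2 fold changes of -0.37 ± 0.16 SE (adjusted p = 0.211) and -0.27 ± 0.17 SE (adjusted p = 0.322) for genotype in chow and HFCF and of -0.51 ± 0.18 SE (adjusted p = 0.0621) and -0.43 ± 0.18 SE (adjusted p = 0.0814) for diet in WT and HuRHep-/- livers. With a replicate block the diet contrasts passed (adjusted p = 0.0306 in WT and 0.0394 in HuRHep-/- livers), and in WT so did the fits without Chow WT replicate 2 (0.0428) or HFCF WT replicate 3 (0.0421). The intervals of all but the HFCF genotype difference nevertheless lay below 0, so the data do not show that Cyp2c37 was alike between groups.

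Cyp2c23, the epoxygenase of the separate locus that is also known from kidney and vessels, had 477, 412 and 449 normalized CPM in Chow WT and 326, 343 and 376 in Chow HuRHep-/- livers. On HFCF it had 225, 295 and 220 in WT and 304, 298 and 282 in HuRHep-/- livers. The HuRHep-/- livers were all low on chow, whereas on HFCF they were above 2 of the 3 WT livers, with HFCF WT replicate 2 inside their range. Genotype differences were -0.37 ± 0.08 SE (log2, adjusted p = 0.0528) in chow and 0.28 ± 0.11 SE (adjusted p = 0.150) in HFCF. The chow difference passed with upper-quartile scaling (adjusted p = 0.0470) and without Chow WT replicate 2 (0.0457) or Chow HuRHep-/- replicate 3 (0.0442). Without HFCF WT replicate 2 the HFCF difference was 0.41 and passed (adjusted p = 0.0263). Between diets it fell 1.82-fold in WT (adjusted p = 0.000613), and the difference of 1.18-fold in HuRHep-/- livers did not pass (adjusted p = 0.0968).

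Cyp2c55, a hydroxylase that forms a HETE and is known to be inducible through CAR and PXR, was counted at 18.0, 10.96 and 16.1 normalized CPM in Chow WT and at 9.45, 6.49 and 9.23 in Chow HuRHep-/- livers. On HFCF the order turned, with 3.44, 3.35 and 3.70 in WT and 8.17, 7.56 and 4.32 in HuRHep-/- livers. The genotypes did not overlap on either diet. The log2 fold change between genotypes was -0.84 ± 0.21 SE in chow (adjusted p = 0.0680) and 0.89 ± 0.24 SE in HFCF (adjusted p = 0.0676). The chow difference passed with a replicate block (adjusted p = 0.0206) and without Chow WT replicate 2 (0.0318), and the HFCF difference passed in the fit on all 12 libraries (0.0397) and without HFCF HuRHep-/- replicate 3 (0.0302). Its fall with the diet was 4.19-fold in WT (adjusted p = 0.000468), and the difference in HuRHep-/- livers was 1.28-fold (adjusted p = 0.261).

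Cyp2c40, a hydroxylase that forms another HETE, had 8.11, 4.46 and 4.72 normalized CPM in Chow WT and 1.06, 0.404 and 2.43 in Chow HuRHep-/- livers. The raw counts behind these were 245, 133 and 144 in WT and 36, 13 and 78 in HuRHep-/- livers. In HFCF WT livers it had 0.799, 5.09 and 0.791, and in HFCF HuRHep-/- livers 1.16, 1.25 and 1.71. One liver, HFCF WT replicate 2, was thus far above all other HFCF livers. The chow genotypes were separate, at a log2 fold change of -2.44 ± 0.57 SE that missed the threshold (adjusted p = 0.0576). It passed with voom weights (adjusted p = 0.0487) and, at -3.06, without Chow HuRHep-/- replicate 3 (0.0212). On HFCF the fold change was -0.12 ± 0.69 SE (adjusted p = 0.929), and without HFCF WT replicate 2 it was 0.76 (adjusted p = 0.121). With the diet it differed by -1.89 ± 0.71 SE in WT (adjusted p = 0.0723), which became -2.78 and passed without that liver (adjusted p = 0.00593), and by 0.41 ± 0.71 SE in HuRHep-/- livers (adjusted p = 0.674).

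Because most of its sequence is shared, Cyp2c40 was also summed with its relatives. Per kb, Cyp2c67 and Cyp2c68 stood at means of 153 and 125 normalized CPM in Chow WT livers, far above Cyp2c40 at 2.83. The sum of Cyp2c40, Cyp2c67, Cyp2c68 and Cyp2c69 differed by 0.03 ± 0.15 SE on the log2 scale between the chow genotypes (adjusted p = 0.924). Cyp2c69 had a log2 fold change of -1.61 ± 0.69 SE on chow (adjusted p = 0.210), and the sum of Cyp2c40 and Cyp2c69 had -2.06 ± 0.44 SE (adjusted p = 0.0446). These sums were chosen after the values had been seen.

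Cyp2c38 and Cyp2c39, an epoxygenase and an enzyme that forms EETs and hydroxylates retinoic acid, were the members that were higher on HFCF in at least 1 genotype. Cyp2c38 had 23.5, 23.8 and 46.0 normalized CPM in Chow WT, 34.5, 17.1 and 10.5 in Chow HuRHep-/-, 58.0, 43.9 and 92.8 in HFCF WT and 88.0, 80.9 and 73.4 in HFCF HuRHep-/- livers. All HFCF HuRHep-/- livers were above all chow livers. It rose 4.38-fold with the diet in HuRHep-/- livers (log2 2.13 ± 0.40 SE, adjusted p = 0.00189), and in WT livers, where 1 liver of each diet overlapped, the fold change of 2.09 did not pass (1.07 ± 0.40 SE, adjusted p = 0.0705). Between genotypes the log2 fold change was -0.69 ± 0.42 SE in chow (adjusted p = 0.367) and 0.39 ± 0.25 SE in HFCF (adjusted p = 0.330). With a library left out the chow value ran from -1.14 to -0.29 and never passed. The HFCF difference was 0.67 and passed without HFCF WT replicate 3 (adjusted p = 0.0390), and the diet difference in WT passed without Chow WT replicate 3 or HFCF WT replicate 2 (0.0438 each).

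Cyp2c39 was the least abundant member per kb on chow, at 0.761, 0.938 and 1.21 normalized CPM in WT and 1.24, 0.993 and 0.436 in HuRHep-/- livers. On HFCF it had 1.70, 1.86 and 3.29 in WT and 2.66, 2.28 and 2.16 in HuRHep-/- livers. The diets did not overlap. It rose 2.27-fold with the diet in WT (adjusted p = 0.0352) and 2.86-fold in HuRHep-/- livers (adjusted p = 0.00717). The WT call was lost without Chow WT replicate 1 (adjusted p = 0.121), Chow WT replicate 2 (0.0676) or HFCF WT replicate 3 (0.137), and with a replicate block (0.0545). Genotype differences were -0.23 ± 0.41 SE in chow (log2, adjusted p = 0.768) and 0.12 ± 0.27 SE in HFCF (adjusted p = 0.799).

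An interaction term in the fit of all 12 libraries tested whether the genotype difference itself differed between chow and HFCF. None of the 9 members passed limma's test, which called 0% of all genes (0 of 14535). Voom weights in place of the trend also gave 0 members. At an unadjusted p under 0.05 stood 4 members, Cyp2c55 (log2 difference 1.71 ± 0.35 SE, adjusted p = 0.0946), Cyp2c23 (0.63 ± 0.15 SE, adjusted p = 0.122), Cyp2c54 (-0.97 ± 0.34 SE, adjusted p = 0.222) and Cyp2c40 (2.30 ± 1.00 SE, adjusted p = 0.304), beside 15.2% of all genes. For the remaining 5 members adjusted p ran from 0.390 to 0.908. Averaged over both diets, Cyp2c29, Cyp2c50 and Cyp2c54 were lower in HuRHep-/- livers, 3 of 9 members beside 10.7% of all genes called lower.

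Summing the 9 members removes the division of reads among them, but not the division between them and Cyp2c relatives outside the 9. The sum was 4247, 3509 and 3860 normalized CPM in Chow WT livers and 2778, 2840 and 3151 in Chow HuRHep-/- livers. On HFCF it was 1992, 2593 and 2356 in WT and 1800, 1660 and 1591 in HuRHep-/- livers. No pair of groups compared overlapped. Group means were 3872 ± 369 and 2923 ± 200 on chow and 2314 ± 303 and 1684 ± 106 on HFCF for WT and HuRHep-/- livers (SD, n = 3), which makes log2 ratios of -0.41 and -0.46 for genotype and -0.74 in WT and -0.80 in HuRHep-/- livers for diet. Each had an exact two-sided permutation p of 0.1, the smallest that 3 against 3 livers can give. These reads made up 0.185% to 0.373% of a library's counts.

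**Figure D3:**
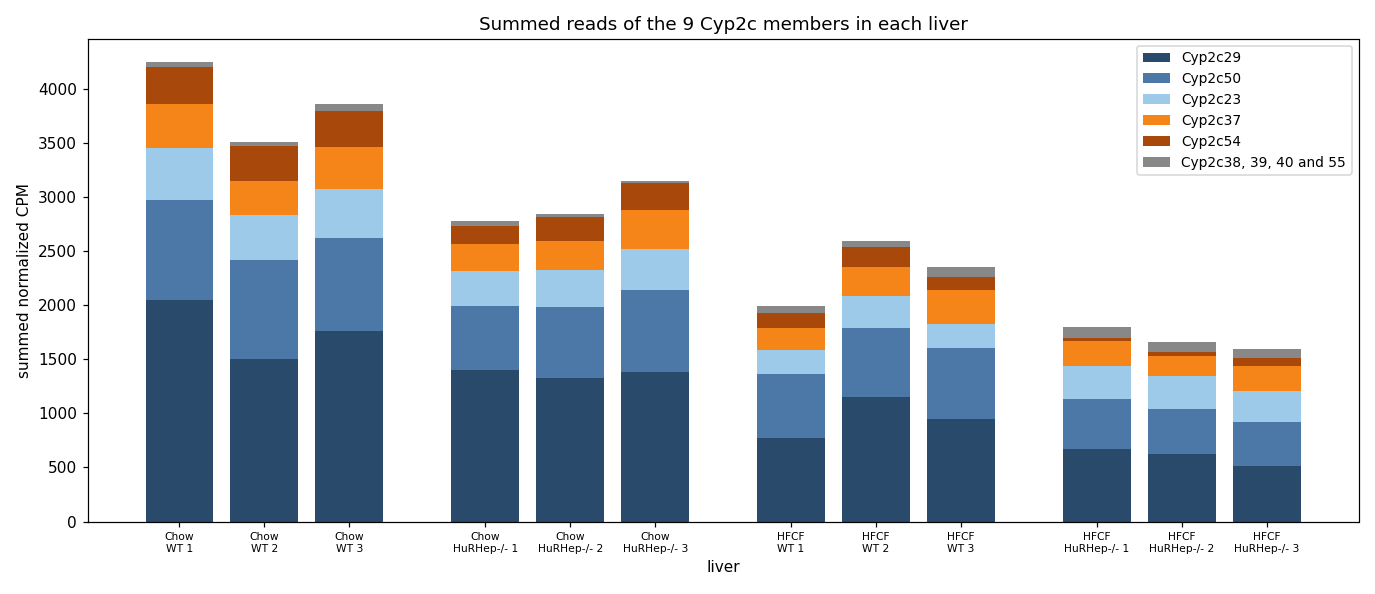
Summed normalized CPM of the 9 members (vertical axis from 0) in each of the 12 livers, stacked by gene. Chow WT livers reach 3509 to 4247 and HFCF HuRHep-/- livers 1591 to 1800, with Cyp2c29 the largest part of every bar.

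The makeup of the sum also differed between the outer groups. From Chow WT to HFCF HuRHep-/- livers, the part of Cyp2c29 in the mean normalized CPM of the members went from 45.7% to 35.8%, that of Cyp2c54 from 8.53% to 2.88%, that of Cyp2c23 from 11.5% to 17.5% and that of Cyp2c38 from 0.803% to 4.80%. Cyp2c50 stayed between 22.8% and 27.2% in all 4 groups. These shares follow from the levels above and were not tested.

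Relatives outside the 9 gave no genotype call. Of 6 other Cyp2c genes listed, 5 were counted in both tables and 4 had enough reads to be tested, and limma called none of the 4 between genotypes on either diet or in their average. Cyp2c70, known for making muricholic acids in mouse bile, had a log2 fold change of 0.11 ± 0.16 SE in chow (adjusted p = 0.721) and -0.17 ± 0.33 SE in HFCF (adjusted p = 0.760). HFCF WT replicate 2 stood high for it, at 712 normalized CPM against 252 and 363 in the other WT livers of that diet. For Cyp2c67 the values were 0.25 ± 0.13 SE (adjusted p = 0.312) and -0.24 ± 0.20 SE (adjusted p = 0.442), and for Cyp2c68 they were -0.25 ± 0.17 SE (adjusted p = 0.414) and 0.08 ± 0.20 SE (adjusted p = 0.830). With the diet, Cyp2c68 fell by 0.73 on the log2 scale in WT (SE 0.21, adjusted p = 0.0284) and Cyp2c67 by 0.95 in HuRHep-/- livers (SE 0.19, adjusted p = 0.00276). Cyp2c65, at 0 to 4 reads per library, was not tested. The pseudogene Cyp2c53-ps had 28, 14 and 21 reads in Chow WT and 0, 5 and 15 in Chow HuRHep-/- livers, a difference that did not pass (adjusted p = 0.207), and on HFCF it had 3, 34 and 6 in WT and 3, 3 and 1 in HuRHep-/- livers, too few for the test within that diet. The 9 members were not compared with these relatives by a test of their own.

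Other steps of the EET pathway were taken from gene lists, whose counts stand beside 1.93% of all genes called lower between genotypes on chow, 3.83% on HFCF and 10.7% in the average over both diets. Among the epoxide hydrolases tested, 1 of 2 was lower in HuRHep-/- livers on HFCF, Ephx2, which turns EETs into diols. Its level was 879, 819 and 872 normalized CPM in Chow WT, 692, 715 and 760 in Chow HuRHep-/-, 973, 1082 and 789 in HFCF WT and 585, 639 and 627 in HFCF HuRHep-/- livers. It fell by 0.60 on the log2 scale on HFCF (SE 0.12, adjusted p = 0.0369), and on chow it differed by -0.25 ± 0.07 SE (adjusted p = 0.0949). Of 3 Cyp2j epoxygenases tested, Cyp2j6 was lower on chow (log2 -0.53 ± 0.08 SE, adjusted p = 0.0165) and Cyp2j9 on HFCF (-0.90 ± 0.16 SE, adjusted p = 0.0299). In the average over both diets 2 of the 3 were lower by limma, Cyp2j6 (-0.43, adjusted p = 0.000548) and Cyp2j5 (-0.32, adjusted p = 0.0169). None of the 5 genes listed as electron donors or partners of P450 was called between genotypes on either diet by limma. Pgrmc1, a heme-binding partner of P450 enzymes, had -0.24 ± 0.09 SE (adjusted p = 0.152) and -0.37 ± 0.10 SE (adjusted p = 0.0689). In the average over both diets 1 of the 5 was lower, Pgrmc1 (-0.31 ± 0.07 SE, adjusted p = 0.00903).

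Of 12 Cyp4 ω-hydroxylases, which form another HETE from arachidonic acid, Cyp4f16 was higher in HuRHep-/- livers on chow (log2 1.22 ± 0.24 SE, adjusted p = 0.0381) and HFCF (1.67 ± 0.25 SE, adjusted p = 0.0203), and Cyp4a32 was lower on HFCF (-0.86 ± 0.20 SE, adjusted p = 0.0489). Among 6 tested genes of arachidonate release, cyclooxygenases and lipoxygenases, Pla2g6, a calcium-independent phospholipase A2, was lower on both diets (-0.56 ± 0.11 SE, adjusted p = 0.0338; -0.64 ± 0.07 SE, adjusted p = 0.0115). With the diet Pla2g6 went the other way, rising by 1.08 in WT (adjusted p = 9.12e-05) and 0.97 in HuRHep-/- livers (adjusted p = 7.65e-05). Of 15 other hepatic P450 genes of families 1 and 2, 1 was lower on chow (Cyp2r1, a vitamin D hydroxylase, -0.49 ± 0.10 SE, adjusted p = 0.0429), and 3 were lower and 3 higher on HFCF, beside 1.93% of all genes lower on chow and 3.83% lower and 2.66% higher on HFCF. The smallest p among these belonged to Cyp2d9, a steroid hydroxylase of male mouse liver (-1.09 ± 0.15 SE, adjusted p = 0.0184), and Cyp2a4, a steroid hydroxylase of female mouse liver (6.21 ± 1.02 SE, adjusted p = 0.0246). In the average over both diets 6 of the 15 were lower and 3 higher, beside 10.7% and 8.59% of all genes. With the diet 6 were lower and 1 higher in WT, beside 13.0% and 11.2% of all genes. In HuRHep-/- livers 8 were lower and 3 higher with the diet, beside 22.2% and 18.3%.

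Of 12 regulators of Cyp2c transcription, 0 were called between genotypes on either diet by limma. Hnf4a, whose product binds CAAAGT-type sites, had log2 fold changes of -0.06 ± 0.09 SE (adjusted p = 0.735) and -0.03 ± 0.07 SE (adjusted p = 0.792). In the average over both diets, 3 of 12 regulators were lower in HuRHep-/- livers, beside 10.7% of all genes. Among them were Nr3c1, the gene of the glucocorticoid receptor (-0.18, adjusted p = 0.0282), and Nr1i3, the gene of CAR (-0.45, adjusted p = 0.0332). With the diet, 5 of 12 were lower in WT and 3 of 12 in HuRHep-/- livers, beside 13.0% and 22.2% of all genes, Hnf4a among them in both (-0.51, adjusted p = 0.00251; -0.50, adjusted p = 0.00128). Of the CAR and PXR sentinel targets, 1 of 9 was lower on chow and 1 of 10 on HFCF between genotypes (1.93% and 3.83% of all genes), in both cases Ugt1a1, a glucuronosyltransferase (-0.71 ± 0.08 SE, adjusted p = 0.00743; -0.65 ± 0.09 SE, adjusted p = 0.0190). With the diet, 4 of 10 of these targets were lower and 1 higher in WT, and 5 were lower and 3 higher in HuRHep-/- livers (over all genes 13.0% lower and 11.2% higher in WT, 22.2% and 18.3% in HuRHep-/-), with Cyp3a11 lower in both (-1.18, adjusted p = 0.0112; -1.27, adjusted p = 0.00443).

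Acute-phase genes moved with the genotype on chow, where 5 of 15 were higher and 1 lower in HuRHep-/- livers, beside 2.23% of all genes called higher and 1.93% called lower. Saa1, a serum amyloid, was at 33.0 ± 19.5 normalized CPM in Chow WT and 620 ± 498 in Chow HuRHep-/- livers (SD, n = 3; adjusted p = 0.0208). The lower one, Hpx, which encodes the heme-binding protein hemopexin, fell by 0.91 on the log2 scale (SE 0.15, adjusted p = 0.0210). On HFCF 0 of 15 were higher and 2 lower by limma, among them Hpx again (log2 -1.60 ± 0.10 SE, adjusted p = 0.00252). In the average over both diets 7 of 15 were higher and 1 lower, beside 8.59% and 10.7% of all genes. Their part in the Cyp2c differences was not tested.

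Cyp2c genes are known to be expressed by hepatocytes, and all 10 hepatocyte markers were counted in every group, with summed levels of 118868 to 143637 normalized CPM in Chow WT, 103093 to 112347 in Chow HuRHep-/-, 85781 to 97915 in HFCF WT and 81399 to 84373 in HFCF HuRHep-/- livers. Between genotypes 0 of 10 were called on chow and 1 lower on HFCF (Apob), and with the diet 4 were lower in WT and 6 in HuRHep-/- livers, beside 13.0% and 22.2% of all genes. The largest part of the marker sum was Alb, with means of 74293, 53184, 45176 and 41071 normalized CPM in the same order of groups, while Trf had means of 15423, 18090, 13772 and 15721. Of 12 pericentral markers, Glul was higher on chow (log2 0.85 ± 0.12 SE, adjusted p = 0.0133), and on HFCF 1 was higher and 3 lower, among them Cyp2e1 (-0.75 ± 0.17 SE, adjusted p = 0.0458). Over all genes 2.23% were higher on chow, and 2.66% were higher and 3.83% lower on HFCF. Of 12 periportal markers, 1 was higher on chow and 0 were called on HFCF, while with the diet 7 were lower in WT and 8 in HuRHep-/- livers, beside 13.0% and 22.2% of all genes. Summed pericentral levels ran from 9978 to 12969 on chow, from 11026 to 12530 in HFCF WT and from 7530 to 8815 in HFCF HuRHep-/- livers. With the diet 2 of 12 pericentral markers were higher and 1 lower in WT, beside 11.2% and 13.0% of all genes. In HuRHep-/- livers 1 was higher and 4 were lower with the diet, beside 18.3% and 22.2%. In the average over both diets 3 were higher and 4 lower between genotypes, beside 8.59% and 10.7%.

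Part of the markers of other cells were higher on HFCF, where 11.2% of all genes were called higher with the diet in WT and 18.3% in HuRHep-/- livers. The 8 recruited macrophage markers summed to 84.2 to 131 normalized CPM in Chow WT, 110 to 152 in Chow HuRHep-/-, 116 to 269 in HFCF WT and 291 to 441 in HFCF HuRHep-/- livers, and 4 of 8 passed as higher with the diet in WT and 7 of 8 in HuRHep-/- livers. The 8 Kupffer cell markers summed to 147 to 185, 205 to 302, 216 to 340 and 279 to 480 in the same order of groups. Of these 8, 2 were called higher with the diet in WT, and 3 higher and 1 lower in HuRHep-/- livers. The lower one was Cd163 (log2 -1.41, adjusted p = 0.00202 by limma), beside 22.2% of all genes called lower. For 8 stellate cell markers the ranges were 147 to 168, 121 to 175, 191 to 338 and 327 to 381, and for 6 cholangiocyte markers 35.4 to 79.0, 47.7 to 77.6, 38.6 to 88.2 and 131 to 237. With the diet 3 of 8 stellate cell and 0 of 6 cholangiocyte markers were called higher in WT. In HuRHep-/- livers 8 of 8 and 6 of 6 were. The lists of recruited macrophages and cholangiocytes share Spp1, which made up 114 to 210 of the latter sum in HFCF HuRHep-/- livers. Between genotypes on HFCF, 3 of 6 cholangiocyte markers were higher in HuRHep-/- livers, beside 2.66% of all genes. In the average over both diets, where Cyp2c29, Cyp2c50 and Cyp2c54 were called lower, 5 of 8 recruited macrophage, 3 of 8 Kupffer cell and 3 of 6 cholangiocyte markers were called higher, Spp1 being counted in both of its lists, beside 8.59% of all genes. The 8 sinusoidal endothelial markers summed to 131 to 175 over all livers, and 2 of 8 were called higher with the diet in HuRHep-/- livers. The 7 of 8 lymphocyte and neutrophil markers counted in both tables summed to 2.75 to 4.09 in Chow WT, 3.05 to 4.59 in Chow HuRHep-/-, 2.62 to 3.65 in HFCF WT and 5.64 to 6.53 in HFCF HuRHep-/- livers, and 3 of 7 were called higher with the diet in HuRHep-/- livers. No marker of these lists was at 0 in a whole group. The part of cell composition in the Cyp2c differences was not tested.

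Genes whose libraries varied most like the summed family were sought outside Cyp2c, after group means were subtracted over the 12 libraries. The highest Pearson r belonged to Rpf1 (0.95), Oaz1 (0.95), Cradd (0.92), Chac2 (0.91), Pon1 (0.91) and Cab39l (0.91). These values describe the residual spread of 12 libraries that share their scaling. Pon1, a serum esterase made by hepatocytes, was also lower in HuRHep-/- livers on chow (log2 -0.41 ± 0.09 SE, adjusted p = 0.0489).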

How the data were processed

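RNA was sequenced from 12 livers with a stranded kit, 3 per group. According to the methods, which describe the chow libraries, reads were mapped in CLC Genomics Workbench with reverse-strand alignment, and the submitters' processing notes name GRCm38.p6. Gene positions were taken here from GENCODE M21 on the same build. The authors deposited raw read counts per gene, whole numbers written with digit separators as text, in 1 table per diet (20775 genes for chow and 22709 for HFCF). The values were read as numbers and analysed as log2 CPM with a pseudocount of 0.5 after TMM scaling (30% trim of ratios, 5% of means). As planned, a count model was not used, although the values read were whole numbers.

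limma 3.58.1 (R 4.3.3) with a mean-variance trend was fitted within a diet for genotype and over all 12 libraries for diet, interaction and average, with Benjamini-Hochberg adjustment over all genes tested and a threshold of 0.05. Genes needed 10 counts in a median-sized library in 3 libraries and 15 in total. Library totals of 30071731 to 35949203 set the counting precision. The study describes the chow libraries as coming from separate mice, 3 per group, and the sources used here do not state this for the HFCF libraries, whose p-values measure only the spread between these samples. The sum of the 9 members was tested by exact permutation and sums over related genes with limma. Scripts were tested on simulated data. The members and gene lists were chosen with earlier results of these data known. All 9 members are reported, with Elavl1 and every counted Cyp2c relative. From other lists came up to 4 called genes per contrast with the smallest p, or up to 2 of the largest mean count where none passed, and the 6 genes most like the family had a mean of at least 100 normalized counts. Alternatives were other scalings (RLE, upper quartile, total count), no filter, a pseudocount of 2, voom weights, a replicate block, a fit on all 12 libraries, each library left out and, chosen after seeing the data, sums over related genes. For the summed reads, a sum over every Cyp2c gene was a further alternative. The result of 1 listed gene is not reported here.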

Additional observations from a re-analysis of the deposited data

Results flagged for a closer look

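The log2 fold change of Cyp2c55 between genotypes was below 0 on chow and above 0 on HFCF, with groups that did not overlap on either diet. Neither contrast passed by limma (adjusted p = 0.0680 on chow and 0.0676 on HFCF). The genotype log2 fold change on HFCF minus that on chow was 1.71 ± 0.35 SE. In the interaction test by limma the adjusted p of 0.0946 missed the threshold. Over the 12 fits that each left out 1 library the difference ran from 1.53 to 2.02, with adjusted p from 0.0768 to 0.272.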

How the results depend on the processing

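On chow, 1 member was called between genotypes, 3 with upper-quartile scaling, 2 with voom weights and 0 to 4 with a library left out. The fit on all 12 libraries also called 1, Cyp2c50 in place of Cyp2c54. On HFCF, 2 were called, 4 in the fit on all 12 libraries (Cyp2c29 and Cyp2c55 added) and 0 to 3 with a library left out. Left-out libraries gave 3 to 5 for the average over diets, 5 to 8 for diet in WT and 5 for diet in HuRHep-/- livers. The chow count was 0 without Chow WT replicate 1 or 3 or Chow HuRHep-/- replicate 2, and 4 without Chow HuRHep-/- replicate 3. The HFCF count was 0 without HFCF WT replicate 1 or HFCF HuRHep-/- replicate 1 or 2. The summed reads kept their direction, with a log2 ratio of -0.30 for genotype on chow where every Cyp2c gene was summed. With the total count only, which moved the median of all genes by 0.147, 0.182 and 0.265, their log2 ratios were -0.30 for genotype on HFCF, -0.56 for diet in WT and -0.53 for diet in HuRHep-/- livers, the last being -0.70 with upper-quartile scaling.

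Directions that turned with a library left out belonged to contrasts that had not passed. The log2 ranges were -0.53 to 0.20 (Cyp2c39, genotype on chow), -0.053 to 0.40 (Cyp2c39, genotype on HFCF), -0.57 to 0.76 (Cyp2c40, genotype on HFCF) and -0.24 to 1.03 (Cyp2c40, diet in HuRHep-/-). For the average over diets they were -0.081 to 0.16 (Cyp2c55), -0.38 to 0.050 (Cyp2c38), -0.21 to 0.16 (Cyp2c39) and -0.089 to 0.024 (Cyp2c23), and for the interaction -0.072 to 0.26 (Cyp2c37) and -0.10 to 0.66 (Cyp2c39).

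Sums over related genes, chosen after seeing the data, are dominated by the most abundant gene. Cyp2c29, Cyp2c38 and Cyp2c39 together gave -0.55 (genotype on HFCF), -0.83 and -1.001 (diet in WT and HuRHep-/-) and -0.17 (interaction), against the signs of Cyp2c38 and Cyp2c39. Cyp2c37, Cyp2c50 and Cyp2c54 gave -0.12 for the interaction. Cyp2c40, Cyp2c67, Cyp2c68 and Cyp2c69 gave 0.030 (genotype on chow), -0.73 (diet in HuRHep-/-) and -0.16 (interaction).

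Same-numbered libraries correlated at -0.14 to 0.19 after group means were removed, so the numbers were not taken as pairs. With a replicate block, counts of members called were 1, 2, 6, 6, 0 and 3 for genotype on chow and HFCF, diet in WT and HuRHep-/-, interaction and average, but members changed places. The block took Cyp2c54 on chow to an adjusted p of 0.0505 and Cyp2c39 for diet in WT to 0.0545, and called Cyp2c55 on chow (0.0206) and Cyp2c37 for diet in WT (0.0306) and HuRHep-/- livers (0.0394). The causes were not tested. Counts of Cyp2c39, Cyp2c40 and Cyp2c55 are low, which limits their precision.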
